A study of Mus musculus with 12 samples.

Results

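The SR proteins and hnRNPs, the main families of proteins that bind new transcripts and steer splicing, were followed at the RNA level in C17.2 cells, an established multipotent mouse neural stem cell line from a CD1 x C57BL/6 background. Members were the genes of the deposited table named Srsf with a number or Hnrnp with a letter, together with Tra2a, Tra2b, Luc7l, Luc7l2, Luc7l3, Srrm1, Srrm2, Son, Ddx5, Ddx17, Ptbp1 and Ptbp2, which gave 43 of 35321 genes. By role they fell into 11 SR proteins, 8 SR-related or U1-linked proteins, 7 hnRNPs of the A, B and D types, 15 other hnRNPs and PTB proteins, and 2 DEAD-box helicases. Srsf12 showed no read in any library and was not tested, which left 42 members. Cells grew in DMEM/F12 with fetal bovine serum and antibiotics, and neural differentiation was started by moving the cells into N2-supplemented Knockout DMEM containing GlutaMAX. Mitochondria and nuclei were isolated 0, 1 and 2 h later and their RNA sequenced, which gave 6 groups of 2 libraries. Every group came from the same cell line and carried no other treatment. No group kept the serum medium beyond 0 h, so differentiation, loss of serum and the change of medium cannot be told apart. The 2 libraries of a group are given as biological replicates without a word on separate cultures, so p-values measure only the spread between these libraries.

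Libraries held 4564148 to 9252152 reads inside genes, and the members took 1.14% to 1.39% of them. The progenitor markers Nes and Vim were read in every library, at 97.2 to 160.6 and 324 to 533 RPM (reads scaled by the library total), and Sox2 stood at 2.16 to 8.32 RPM. Of 8 progenitor markers 6 were read in every library, while Pax6 was read in 6 libraries, at no more than 0.071 RPM, and Prom1 in 1. Of 6 mesenchymal markers 4 were read in every library, as were 4 of 6 oligodendrocyte and 2 of 6 neuronal markers. Col1a1, a fibrillar collagen of mesenchymal cells, stood at 1187 to 2657 RPM and Sox10, of the oligodendrocyte and neural crest lineages, at 22.1 to 41.4 RPM, while the neuronal Dcx and Syt1 and the astrocytic Aqp4 had no read in any library. The astrocytic Gfap and S100b were read in all 12 libraries, at 0.055 to 0.378 and 0.521 to 1.322 RPM. Slc1a3 was read in 9 libraries and Aldh1l1 in 8. The part of all these markers in the results was not tested. The 13 genes of the mitochondrial genome listed in the gene table had no read in any library, so the mitochondrial preparation could not be checked on them there. Malat1, a long RNA kept in the nucleus, was lower in that preparation by 0.80 ± 0.04 on the log2 scale (limma, adjusted p = 2.24e-07) but was read at 297.5 to 419 RPM after quantile normalization, against 545 to 796 RPM in nuclei. Nuclear RNA was thus present in the mitochondrial preparation, and its part in the members' levels was not tested.

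SR proteins carry RNA-recognition motifs and a tail rich in arginine and serine. They bind exonic enhancers and recruit the spliceosome, and kinases of the Srpk and Clk families switch them between stores and sites of splicing. The hnRNPs coat the nascent transcript and often act the opposite way, hiding splice sites, and several of them shuttle to the cytoplasm, where they affect stability and translation. Genes of both families commonly limit their own expression through introns left in the RNA or through cassette exons that lead to nonsense-mediated decay. In neural cells the balance of PTB proteins is known for holding neuronal exons back.

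Before any comparison, 4 libraries stood apart: replicate 2 of mitochondria at 0 h and replicate 1 of mitochondria at 1 h, of nuclei at 0 h and of nuclei at 1 h. Hnrnpa1, an abundant repressor of exon inclusion, had in mitochondria 4517 and 725 reads (0 h), 539 and 4824 (1 h), then 4303 and 4231 (2 h). Its nuclear reads were 1106 and 5767 (0 h), 445 and 2635 (1 h), then 3705 and 3867 (2 h). The low values were those of the 4 libraries, within both fractions and at both times. Hnrnpa3, its close relative, showed the same split, with 2099 and 253 reads in mitochondria at 0 h, and Hnrnpk, a poly-C binding protein, had 4717 and 2387. The split was compared with processed pseudogenes, intronless copies of a messenger RNA elsewhere in the genome. A search of the members' coding sequences found 70 copies of 17 members, of which 32 belonged to Hnrnpa3, 10 to Hnrnpa1 and 6 to Hnrnpf. The 25 tested members without a copy differed between the 4 libraries and their group partners by a median of -0.03 log2 units on the deposited scale, with a range of -0.15 to 0.06. The median was -0.17 for the 14 members with 1 to 4 copies, with a range of -0.97 to -0.03. Of the 3 members with 5 or more copies, Hnrnpa3 stood at -2.85, Hnrnpa1 at -2.60 and Hnrnpf at -0.36, so the split did not follow the number of copies alone, and Hnrnpk, at -0.97, has 2.

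Copies can be nearly identical to the gene they came from, as the following stretches show. They are set side by side because a read from such a stretch has more than 1 place to align. Bases that differ are in capitals. The first pair covers coding bases 213 to 312 of Hnrnpa3 and its copy Gm5940 (chrX:80456885-80456984, plus strand, GRCm38), which are 99.91% identical over 93.9% of the coding sequence and differ here by G100A, counted from 1 at the 5′ end of the stretch. The second covers coding bases 979 to 1078 of Hnrnpf and its copy Gm7446 (chr13:13890922-13891021, minus strand), where 7 of 100 bases differ.
Hnrnpa3: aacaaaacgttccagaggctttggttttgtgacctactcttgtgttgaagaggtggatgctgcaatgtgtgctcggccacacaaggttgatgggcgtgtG
Gm5940: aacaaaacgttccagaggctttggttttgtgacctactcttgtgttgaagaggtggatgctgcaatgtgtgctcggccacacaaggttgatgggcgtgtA
Hnrnpf: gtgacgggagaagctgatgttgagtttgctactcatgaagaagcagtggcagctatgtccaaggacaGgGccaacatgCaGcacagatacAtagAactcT
Gm7446: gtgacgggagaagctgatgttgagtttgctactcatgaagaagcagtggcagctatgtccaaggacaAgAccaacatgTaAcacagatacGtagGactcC
Processed pseudogenes were not entries of the gene table, but a few listed genes overlap one. Gm47882, which overlaps Gm7446, had 123 reads in the 4 libraries together and 10 in their partners. Gm28901, which overlaps another Hnrnpf copy, Gm6430, had 42 and 3. These were chosen after their values were seen, and most other genes that overlap a copy differed little or went the other way. Gm17200 and Cast, which overlap Hnrnpa1 copies, had 92 and 119 and 3633 and 4162 reads, and Tm9sf2, which overlaps copies of Hnrnpa3, had 2922 and 2960. Hnrnpf itself, a G-tract binding protein, had 2267 and 3167 reads. The 4 libraries lie 1 on each side of both 1 h against 0 h comparisons, but none is a 2 h library, so a 2 h difference of a gene with copies mixes time with the split.

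**Figure D1:**
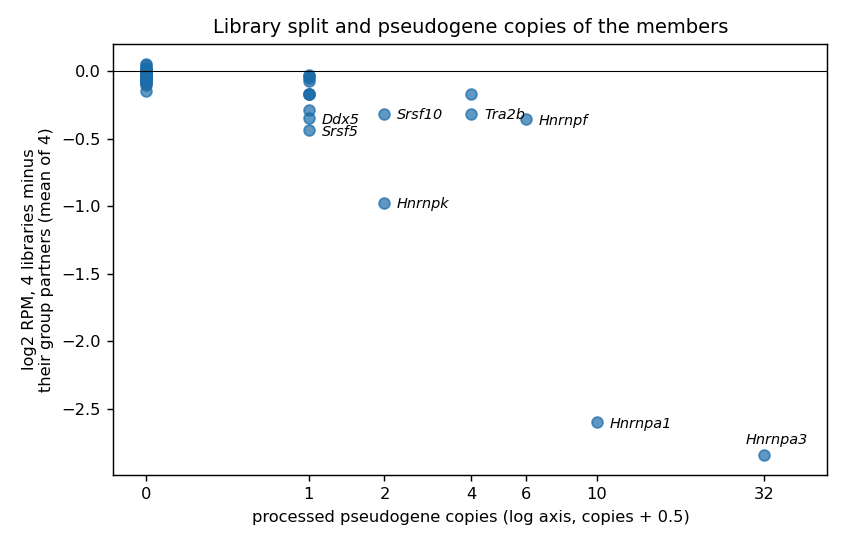
Mean log2 RPM of the 4 libraries minus their group partners (vertical axis, deposited scale, mean of 4 pairs) against the number of processed pseudogene copies (horizontal axis, log scale) for each of the 42 tested members. Members without a copy lie between -0.15 and 0.06, while Hnrnpk, Hnrnpa1 and Hnrnpa3 lie at -0.97, -2.60 and -2.85.

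At 1 h the members moved differently in the 2 preparations. After quantile normalization, 9 members rose in mitochondria, and 1, Srrm2, fell, while in nuclei none rose and 5 fell (limma with Benjamini-Hochberg adjusted p under 0.05). Over all 21078 genes tested, 2.24% rose and 3.74% fell in mitochondria, and 1.01% rose and 0.816% fell in nuclei. Without adjustment, 17 members were higher and 2 lower in mitochondria at p under 0.05, and 1 was higher and 18 lower in nuclei. Shares of all genes or transcripts at an unadjusted p under 0.05 were not computed. These and all later unadjusted counts therefore have no share to be set against. The median member difference was 0.14 log2 units in mitochondria and -0.16 in nuclei, where the median of all genes was 0.00 in both. On the deposited scale the median gene itself fell by 0.22 in mitochondria and by 0.64 in nuclei, and there 12 members fell and none rose in mitochondria, and 39 fell and none rose in nuclei. Of all genes 17.9% fell in mitochondria and 48% in nuclei on that scale. With median centring the counts were 11 up and 3 down in mitochondria, where 2.77% and 5.41% of all genes were, and 3 up and 4 down in nuclei, where 8.22% and 1.36% were. All tested members lie above the median level of the genes tested, and among such genes 3.87% rose and 6.98% fell in mitochondria and 1.85% rose and 1.42% fell in nuclei in the quantile-normalised fit. Every direction given here is therefore relative to the other genes. In bulk RNA, fewer cells of a type and less RNA per cell cannot be told apart.

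The difference between the preparations in the 1 h effect was tested directly. It was above 0 in 39 of 42 members, and the median member difference was 0.36 log2 units, against 0.01 over all genes, of which 51.9% were above 0. The difference passed the threshold in 10 members, all with the larger value in mitochondria, where 0.327% of all genes were called in that direction and 0.892% in the other (0.588% and 1.76% of genes above the median level). These were Tra2a, Srsf3, Ddx17, Hnrnpab, Hnrnpdl, Srsf7, Hnrnpa2b1, Srsf1, Hnrnpd and Srsf6, 10 of the 69 genes called. By role the calls comprised 4 of 10 SR proteins (median 0.44), 1 of 8 SR-related proteins (0.29), 4 of 7 A, B and D type hnRNPs (0.48), none of 15 other hnRNPs and PTB proteins (0.26) and 1 of 2 DEAD-box helicases (0.46). Taking only the 4 libraries that stood apart, 1 for each group, the median member difference was 0.34 and 39 of 42 members were above 0. Among their 4 partners it was 0.34, with 38 of 42 above 0. The median of all genes was 0 in both sets, with 49% and 49.7% of genes above 0. Both sets are parts of the libraries behind the 0.36 given above, so they are not independent of it. The 25 members without a pseudogene copy had a median of 0.38 and the 17 with one 0.34.

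The calls depended on single libraries and settings. Without 1 library at a time the count fell to between 0 and 5. It was 0 without mitochondria 0 h replicate 2, mitochondria 1 h replicate 1 or either nuclei 0 h library, 2 without mitochondria 1 h replicate 2, 3 without any of the 2 h libraries, 4 without nuclei 1 h replicate 2, and 5 without mitochondria 0 h replicate 1 or nuclei 1 h replicate 1. Fewer genes in all were called in each of those fits too, so the lower counts are not particular to the members. The median member difference in those fits stayed between 0.27 and 0.45. On the deposited scale 25 members were called higher and none lower, and with median centring 7 higher and 1 lower. Of all genes 7.46% were then called higher and 0.389% lower on the deposited scale, and 0.332% and 3.28% with median centring. Members above 0 numbered 41 of 42 on the deposited scale and 32 of 42 with median centring. Their median difference was 0.65 and 0.21, against 0.33 and -0.11 over all genes.

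**Figure D2:**
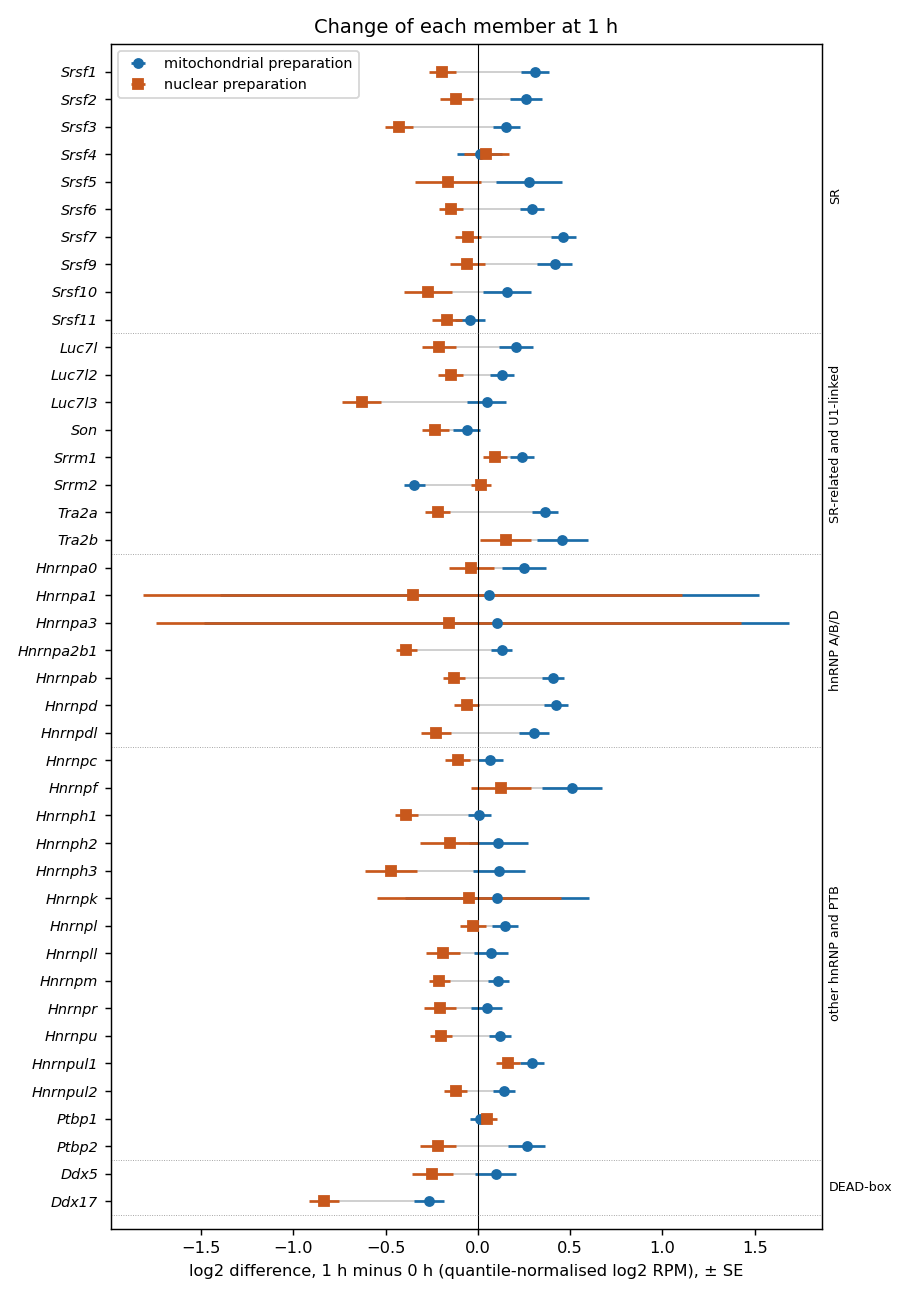
Log2 difference between 1 h and 0 h (horizontal axis, quantile-normalised log2 RPM, ± SE of the limma fit, n = 2 libraries a group) for each of the 42 tested members in mitochondria (circles) and nuclei (squares), grouped by role. The mitochondrial value lies to the right of the nuclear one in 39 members; Hnrnpa1, Hnrnpa3 and Hnrnpk, whose libraries split, have wide bars.

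Among the SR proteins, Srsf7 and Srsf3 are small shuttling members that also act in export of messenger RNA. Srsf7 (chr17:80200080-80207307) stood in mitochondria at 23.4 and 21.8 quantile-normalised RPM at 0 h, 32.1 and 30.1 after 1 h, then 29.8 and 31.9 after 2 h. In nuclei it stood at 31.2 and 29.9, 29.6 and 29.2, and 33.6 and 34.8. The mitochondrial libraries of 0 h lay below all others of either preparation. At 1 h the mitochondrial libraries lay above the nuclear ones, and at 2 h they lay below them again, without overlap at either time. Srsf7 rose in mitochondria by 0.46 ± 0.07 log2 units at 1 h (limma, adjusted p = 0.00208) and by 0.45 ± 0.07 at 2 h (adjusted p = 0.00179), and the fractions differed at 1 h by 0.52 ± 0.10 (adjusted p = 0.0291). Srsf3 (chr17:29032628-29043373) stood in mitochondria at 28.4 and 25.6 RPM at 0 h, 30.1 and 29.9 after 1 h, then 32.5 and 32.1 after 2 h. In nuclei it stood at 34.4 and 35.7 at 0 h, 24.6 and 27.7 after 1 h, then 34.3 and 34.9 after 2 h. It was lowest in nuclei at 1 h and close to the 0 h libraries again at 2 h. The nuclear fall was -0.43 ± 0.07 (adjusted p = 0.0161) and the following rise 0.41 ± 0.07 (adjusted p = 0.0156), and the fractions differed at 1 h by 0.58 ± 0.11 (adjusted p = 0.0258). Its rise in mitochondria at 2 h, 0.26 ± 0.07 (adjusted p = 0.0426), was -0.12 on the deposited scale.

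Srsf1, the founding SR protein, and Srsf6, Srsf2 and Srsf9 had their highest mitochondrial libraries at 1 h. Srsf1 (chr11:88047373-88053755) stood there at 61.3 and 60.5 RPM at 0 h, 79.8 and 71.2 after 1 h, then 59.3 and 61.7 after 2 h, and in nuclei at 69.1 and 64.5, 62.3 and 54.8, and 56.1 and 57.5. The 1 h libraries of mitochondria were the highest and those of 0 and 2 h overlapped. Its change was 0.31 ± 0.07 from 0 to 1 h (limma, adjusted p = 0.0313) and -0.32 ± 0.07 from 1 to 2 h (adjusted p = 0.0393), and the fractions differed at 1 h by 0.50 ± 0.11 (adjusted p = 0.0457). The 1 h value of Srsf1 in mitochondria was -0.04 on the deposited scale. Srsf6, which acts on tau exon splicing among others, stood in mitochondria at 36.3 and 37.2, 47.0 and 43.2, and 35.8 and 34.5 RPM. It fell by 0.36 ± 0.07 from 1 to 2 h (adjusted p = 0.0121), and the fractions differed at 1 h by 0.44 ± 0.09 (adjusted p = 0.0436). Srsf2, a nuclear SR protein of speckles, stood at 41.9 and 48.8, 57.8 and 50.8, and 39.4 and 40.0 RPM in mitochondria. The 1 h libraries again lay highest, and the fall from 1 to 2 h was -0.45 ± 0.09 (adjusted p = 0.0173). Srsf9 stood in mitochondria at 8.35 and 9, 11.5 and 11.7, and 9.96 and 8.94 RPM, and in nuclei at 10.2 and 11.6, 10.4 and 10.6, and 8.24 and 8.40. It rose in mitochondria at 1 h by 0.42 ± 0.09 (adjusted p = 0.0219) and fell in nuclei at 2 h by 0.39 ± 0.09 (adjusted p = 0.0202), while its nuclear change from 1 to 2 h, -0.34 ± 0.09, did not pass (adjusted p = 0.0906). Srsf6 also rose in mitochondria at 1 h, by 0.30 ± 0.07 (limma, adjusted p = 0.02). In nuclei at 2 h Srsf6 changed by -0.25 ± 0.07 (adjusted p = 0.0315), Srsf2 by -0.33 ± 0.09 (adjusted p = 0.0347) and Srsf11 by -0.34 ± 0.08 (adjusted p = 0.0175). Srsf4, Srsf5 and Srsf10 passed no time comparison.

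**Figure D3:**
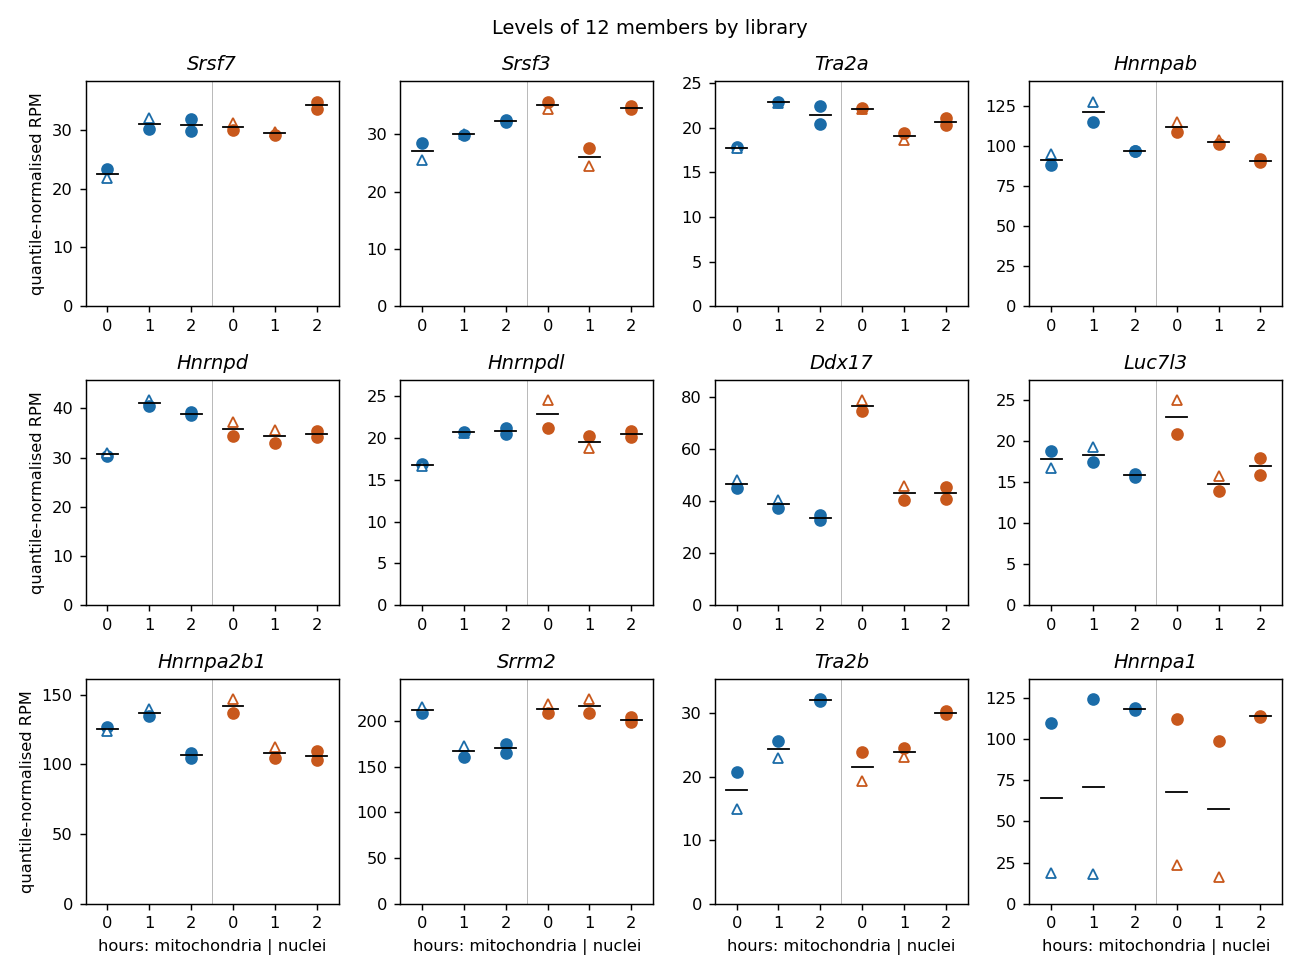
Quantile-normalised RPM (vertical axes, each from 0) of 12 members by hours after induction in mitochondria (left) and nuclei (right). Each point is a library, open triangles are the 4 libraries that stood apart, and bars are means of 2; Srsf7, Tra2a, Hnrnpd and Hnrnpdl are lowest in mitochondria at 0 h, Ddx17 is highest in nuclei at 0 h, and the triangles of Hnrnpa1 lie far below their partners.

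Of the SR-related proteins, Tra2a and Tra2b are paired activators of exon inclusion that bind AGAA-rich enhancers. Tra2a (chr6:49243924-49264033) stood in mitochondria at 17.8 and 17.7 RPM at 0 h, 22.8 and 22.9 after 1 h, then 20.4 and 22.5 after 2 h. In nuclei it stood at 22.1 and 22.2, 18.6 and 19.4, and 20.2 and 21.03. The order of the 2 preparations was turned round between 0 and 1 h without overlap. Tra2a rose in mitochondria by 0.36 ± 0.07 at 1 h (limma, adjusted p = 0.00917) and 0.27 ± 0.07 at 2 h (adjusted p = 0.0276), although the latter was -0.14 on the deposited scale, and the fractions differed at 1 h by 0.58 ± 0.10 (adjusted p = 0.0189). Tra2b stood in mitochondria at 20.8 and 15.0 RPM at 0 h, 22.9 and 25.7 after 1 h, then 32.2 and 31.9 after 2 h, and in nuclei at 19.3 and 23.9, 23.1 and 24.5, and 29.9 and 30.3. It was highest at 2 h in both preparations. The 2 h rise was 0.86 ± 0.14 in mitochondria (adjusted p = 0.0022), the largest of any member called, and 0.49 ± 0.14 in nuclei (adjusted p = 0.0418). Tra2b has 4 pseudogene copies, and with a term for the library split the rises were 0.73 (adjusted p = 0.000423) and 0.36 (adjusted p = 0.0237). The nuclear rise was -0.09 on the deposited scale.

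Srrm2, a scaffold of nuclear speckles, was the member that fell in mitochondria at 1 h. Srrm2 stood there at 209 and 215 RPM at 0 h, 173 and 161 after 1 h, then 175 and 166 after 2 h, and in nuclei between 199 and 224 throughout. The later mitochondrial libraries lay below every nuclear one. It changed by -0.34 ± 0.06 at 1 h (limma, adjusted p = 0.00351) and -0.32 ± 0.06 at 2 h (adjusted p = 0.00425). Its 1 h difference between fractions was the lowest of all members tested, -0.36 ± 0.08, and was not called (adjusted p = 0.0538). Son, the other speckle scaffold, stood in mitochondria at 92.2 and 95.7, 96.6 and 84.2, and 74.3 and 71.0 RPM, and in nuclei at 128 and 116, 107 and 100.3, and 98.7 and 95.9. Son was lower at 2 h in both, by -0.37 ± 0.07 in mitochondria (adjusted p = 0.00734) and -0.32 ± 0.07 in nuclei (adjusted p = 0.0157). Luc7l3, a U1 snRNP-associated protein that helps to choose 5′ splice sites, stood in nuclei at 24.9 and 20.9 RPM at 0 h, 15.8 and 13.8 after 1 h, then 17.9 and 15.9 after 2 h. Both later groups lay below those of 0 h, and Luc7l3 fell by 0.63 ± 0.11 at 1 h (adjusted p = 0.0144) and by 0.44 ± 0.11 at 2 h (adjusted p = 0.0236). In mitochondria it stayed between 15.6 and 19.2 RPM and passed no comparison. Srrm1, Luc7l and Luc7l2 passed no time comparison.

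The A, B and D type hnRNPs held the largest share of members with a fraction difference. Hnrnpab, also known as CBF-A, stood in mitochondria at 88.3 and 94.8 RPM at 0 h, 128 and 115 after 1 h, then 97.1 and 97.1 after 2 h, and in nuclei at 115 and 109, 104 and 101, and 89.97 and 91.8. It peaked at 1 h in mitochondria and was lower at each later time in nuclei, with no overlap in either. It rose in mitochondria by 0.41 ± 0.06 (limma, adjusted p = 0.00231) and then fell by 0.32 ± 0.06 (adjusted p = 0.0151), and the fractions differed at 1 h by 0.54 ± 0.09 (adjusted p = 0.0155). Hnrnpd, the AU-rich element binding protein AUF1 (chr5:99955935-99978938), stood in mitochondria at 30.4 and 30.9 RPM, then 41.7 and 40.6, then 38.7 and 39.2. In nuclei it lay between 32.9 and 37.2 at all times. It rose in mitochondria by 0.42 ± 0.07 at 1 h (adjusted p = 0.00253) and 0.35 ± 0.07 at 2 h (adjusted p = 0.00579), the latter being -0.01 on the deposited scale, and the fractions differed at 1 h by 0.49 ± 0.09 (adjusted p = 0.0301). Hnrnpdl, its paralogue, stood in mitochondria at 16.9 and 16.6, 20.7 and 20.7, and 21.2 and 20.5 RPM, and in nuclei at 24.5 and 21.2, 18.8 and 20.2, and 20.9 and 20.1. The mitochondrial libraries of 0 h were the lowest of the 12. It rose there by 0.30 ± 0.08 at 1 h (adjusted p = 0.0447) and 0.31 ± 0.08 at 2 h (adjusted p = 0.0254; -0.08 on the deposited scale), and the fractions differed at 1 h by 0.53 ± 0.11 (adjusted p = 0.0458).

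Hnrnpa2b1, a carrier of localised messenger RNA in neural cells and a reader linked to methylated adenosine, differed in the timing of its fall between the preparations. It stood in mitochondria at 127 and 124 RPM at 0 h, 139.6 and 135 after 1 h, then 105 and 108 after 2 h. In nuclei it stood at 147 and 137, 112 and 105, and 109 and 103. Nuclear levels dropped within 1 h and stayed low, and mitochondrial levels dropped only between 1 and 2 h. The nuclear fall was -0.39 ± 0.06 at 1 h (limma, adjusted p = 0.0058) and -0.42 ± 0.06 at 2 h (adjusted p = 0.00104). The mitochondrial fall from 1 to 2 h was -0.37 ± 0.06 (adjusted p = 0.00575), with -0.24 ± 0.06 from 0 to 2 h (adjusted p = 0.0209), and the fractions differed at 1 h by 0.52 ± 0.08 (adjusted p = 0.0136). Hnrnpa0 passed no time comparison, and Hnrnpa1 and Hnrnpa3 carried errors too wide to call.

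Among the other hnRNPs, Hnrnph1, a G-run binding protein, stood in nuclei at 73.9 and 72.2 RPM at 0 h, 58.5 and 53.4 after 1 h, then 56.4 and 54.3 after 2 h. In mitochondria it stayed between 53.9 and 59.8. Only the nuclear libraries of 0 h were set apart. It fell in nuclei by 0.39 ± 0.06 at 1 h (limma, adjusted p = 0.0111) and 0.40 ± 0.06 at 2 h (adjusted p = 0.00223), while its 1 h difference between fractions, 0.40 ± 0.09, did not pass (adjusted p = 0.0615). Ptbp2, the neural PTB protein, stood in nuclei at 10.9 and 11.4, 9.15 and 10.1, and 8.48 and 8.95 RPM, and was lower at 2 h by -0.36 ± 0.10 (adjusted p = 0.0389). Ptbp1, its relative of dividing progenitors, stood between 121 and 134 RPM in all 12 libraries and passed no comparison. Hnrnph3 stood in nuclei at 4.55 and 5.46, 3.58 and 3.61, and 4.90 and 5.81 RPM, and its change from 1 to 2 h, 0.57 ± 0.14, did not pass (adjusted p = 0.0593). Hnrnpul1, a protein of the DNA damage response, rose in mitochondria at 1 h by 0.29 ± 0.07 (adjusted p = 0.0229) and at 2 h by 0.23 ± 0.07 (limma, adjusted p = 0.0428). On the deposited scale its 2 h libraries in mitochondria lay below those of 0 h. In nuclei at 2 h Hnrnpu changed by -0.34 ± 0.06 (adjusted p = 0.00356) and Hnrnpm by -0.30 ± 0.06 (adjusted p = 0.00697). In mitochondria Hnrnpu changed by -0.24 ± 0.06 from 1 to 2 h (adjusted p = 0.0467).

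The helicase Ddx17 had the largest nuclear fall. Ddx17 (chr15:79527736-79546741), which unwinds RNA and acts with its paralogue Ddx5 in splicing and transcription, stood in nuclei at 78.8 and 74.6 RPM at 0 h, 46.0 and 40.3 after 1 h, then 45.6 and 40.7 after 2 h. In mitochondria it stood at 45.2 and 48.0, 40.4 and 37.4, and 34.5 and 32.8. Nuclei at 0 h lay far above every other library. The nuclear change was -0.83 ± 0.08 at 1 h (limma, adjusted p = 0.000231) and -0.83 ± 0.08 at 2 h (adjusted p = 0.000101), that is to 0.562 of the 0 h level. In mitochondria the change was -0.47 ± 0.08 at 2 h (adjusted p = 0.00368), and the fractions differed at 1 h by 0.57 ± 0.12 (adjusted p = 0.0393). Ddx5 passed no time comparison.

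At 2 h against 0 h, the nuclear pattern was mainly of falls. In nuclei 1 member, Tra2b, rose and 13 fell, while 4.65% of all genes rose and 5.55% fell (limma, adjusted p under 0.05). Of the 13, 12 had no pseudogene copy. Fitted without either nuclei 0 h library, or without either nuclei 2 h library, 5 to 9 members fell and none rose. In mitochondria 7 members rose and 4 fell, where 4.66% of all genes rose and 6.78% fell. Of these 7, Tra2b, Srsf3, Srsf7 and Hnrnpdl have pseudogene copies. Leaving out mitochondria 0 h replicate 1, 0 h replicate 2, 2 h replicate 1 or 2 h replicate 2 gave 7, 6, 7 and 4 calls in place of 11. From 1 to 2 h in mitochondria none rose and 7 fell, against 1.61% and 2.12% of all genes, and 1 and 17 members passed an unadjusted p under 0.05 upward and downward. Without mitochondria 2 h replicate 1 none of these was called, and without mitochondria 1 h replicate 1 or 2 h replicate 2, 1 was. Without mitochondria 0 h replicate 2 or either nuclei 0 h library, 4 were. In nuclei from 1 to 2 h, Srsf3 alone rose and none fell, against 1.16% and 1.27%, with 6 members at an unadjusted p under 0.05 in each direction. That call was lost without nuclei 1 h replicate 1 or either 2 h library. Fewer genes in all were also called in each of these fits with a library left out. On the deposited scale 23 members fell in mitochondria and 36 in nuclei from 0 to 2 h and none rose, where the median gene fell by 0.28 and 0.51, and with median centring 4 rose and 8 fell in mitochondria. Of all genes 25.5% fell in mitochondria and 38.1% in nuclei on the deposited scale, and 4.07% rose and 11.2% fell in mitochondria with median centring. From 1 to 2 h in nuclei, median centring gave 8 falls and no rise, where 6.05% of all genes fell and the median gene stood at -0.14. Among genes above the median level, the quantile-normalised shares that rose and fell from 0 to 2 h were 7.8% and 12% in mitochondria and 7.77% and 10% in nuclei, and from 1 to 2 h 2.72% and 3.54% in mitochondria and 1.88% and 2.28% in nuclei.

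For the 1 h counts of each preparation, single libraries mattered as well, and fewer genes in all were called in each fit given here. In mitochondria 6 members were called without 0 h replicate 1, and 5 without 0 h replicate 2 or 1 h replicate 1, in place of 10. In nuclei 1 was called without 0 h replicate 1, 3 without 0 h replicate 2 and 2 without 1 h replicate 2, in place of 5. At 2 h no member's difference between fractions passed, where 0.00474% of all genes were called higher and 0% lower, although 14 members were higher and 1 lower at an unadjusted p under 0.05 (limma). The nearest were Hnrnpab at 0.39 ± 0.09 (adjusted p = 0.149), Hnrnpd at 0.39 ± 0.09 (adjusted p = 0.172) and Hnrnpdl at 0.47 ± 0.11 (adjusted p = 0.176), with the values by library given above. The median member difference at 2 h was 0.18 log2 units.

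Averaged over the times, 3 members were higher and 9 lower in mitochondria than in nuclei, against 4.43% and 5.19% of all genes. This split depended on the scaling, since 10 were higher and 5 lower on the deposited scale and 25 were higher and none lower with median centring. Of all genes 5.16% were higher and 8.32% lower on the deposited scale, and 20.1% and 4.78% with median centring. Among genes above the median level, as all tested members are, the shares in the quantile-normalised fit were 7.64% and 8.59%. Hnrnpul2, a SAF-A related protein, was the member higher in every mitochondrial library, at 39.3 to 45.1 RPM, than in any nuclear one, at 33.8 to 39.2, a difference of 0.19 ± 0.04 (limma, adjusted p = 0.00528). Ddx17 was lower by -0.41 ± 0.05 (adjusted p = 0.000289) and Son by -0.33 ± 0.04 (adjusted p = 0.000565), both with overlapping groups, and Son stood at 0.02 with median centring. The average hid a course in time. At 0 h 7 of 42 members had the higher mean in mitochondria, with a median difference of -0.24; at 1 h 36 had, with 0.12; and at 2 h 22 had, with 0.01. The median of all genes was 0 at each time.

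**Figure D4:**
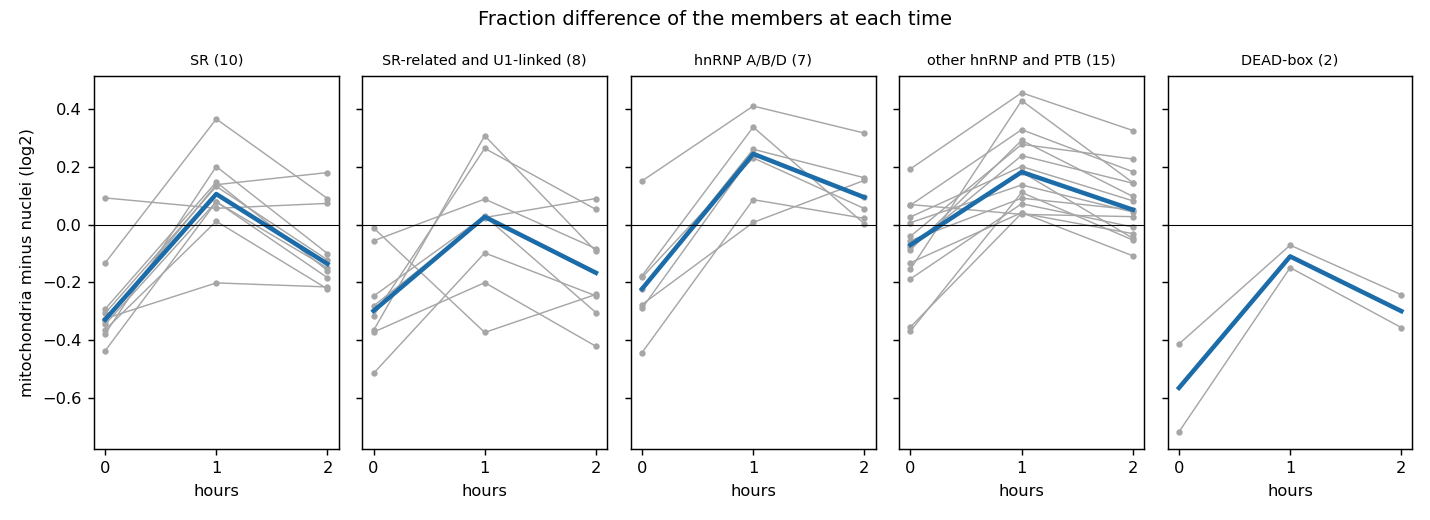
Mean log2 level in mitochondria minus nuclei (vertical axis, quantile-normalised, n = 2 libraries a group) at 0, 1 and 2 h (horizontal axis) for each tested member, in a panel per role with the number of members. Grey lines are members and the thick line is the median of the role, which is lowest at 0 h and highest at 1 h in all 5 panels.

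Promoters are shown for Tra2a, Srsf3 and Ddx17, which had the largest 1 h differences between fractions among the 10 members called; Luc7l3 at 0.68 and Hnrnph3 at 0.59 were larger but were not called (limma, adjusted p = 0.061 and 0.235). RefSeq promoters (GRCm38.p6, 300 bases, ending 50 bases after the transcription start) were found for 40 of 43 members and compared with 1 promoter for each of 27025 genes. Motifs were searched on both strands as CCAAT for the CCAAT box, CACGTG for the E-box, CCGGAA for the ETS core, GGGCGG for the GC box, TGACGT for the 1-sided core of the cAMP response element (CRE) and TATAAA for the TATA box, and every match is in capitals. The sequences run 5′ to 3′ on the gene's strand.
Tra2a (chr6:49264003-49264302, minus strand): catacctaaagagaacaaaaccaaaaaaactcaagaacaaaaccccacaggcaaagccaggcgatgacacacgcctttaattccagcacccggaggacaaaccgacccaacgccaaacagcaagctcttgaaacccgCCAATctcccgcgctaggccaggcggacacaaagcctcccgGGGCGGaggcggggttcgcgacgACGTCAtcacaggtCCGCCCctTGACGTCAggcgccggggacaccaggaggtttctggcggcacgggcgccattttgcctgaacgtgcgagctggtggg
Srsf3 (chr17:29032410-29032709, plus strand): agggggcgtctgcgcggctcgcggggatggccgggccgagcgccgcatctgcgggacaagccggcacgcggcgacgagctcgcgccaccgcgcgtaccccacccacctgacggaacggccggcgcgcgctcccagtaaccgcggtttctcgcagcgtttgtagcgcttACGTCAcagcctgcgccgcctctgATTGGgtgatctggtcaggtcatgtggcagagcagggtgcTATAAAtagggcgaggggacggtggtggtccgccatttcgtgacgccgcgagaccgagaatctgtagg
Ddx17 (chr15:79546692-79546991, minus strand): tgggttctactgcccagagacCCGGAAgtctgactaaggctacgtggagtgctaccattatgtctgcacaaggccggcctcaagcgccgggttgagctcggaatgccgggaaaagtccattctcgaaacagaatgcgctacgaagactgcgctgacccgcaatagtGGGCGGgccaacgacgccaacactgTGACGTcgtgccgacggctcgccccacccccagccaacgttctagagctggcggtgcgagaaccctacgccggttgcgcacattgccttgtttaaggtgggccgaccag
All 3 hold a CRE core, which in Tra2a includes 2 overlapping matches that form a full palindrome. The CRE core was present in 12 of 40 member promoters, against 7.6% of all promoters. The GC box was present in 30 of 40 against 35.9%, the CCAAT box in 22 against 37.9%, the ETS core in 13 against 15.2%, the E-box in 5 against 7.2% and the TATA box in 4 against 14.2%. Among the 10 members called at 1 h, the GC box was present in 8, the ETS core in 6, the CCAAT box and the CRE core in 5 each, the TATA box in 2 and the E-box in 1. Member promoters had a median of 65.2% G and C, against 52.7% over all promoters, and the shares of motifs that hold G and C move with that value. A match says only that these letters are present.

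The deposited transcript table, part of a longer list, held 97 transcripts of 35 members in 11 libraries. By GENCODE type 72 were protein coding, 13 retained an intron, 9 were targets of nonsense-mediated decay and 3 were processed transcripts. Retained-intron transcripts held 8.77% of the members' summed FPKM in mitochondria 0 h replicate 1, 5.92% in 1 h replicate 2 and 6.15% and 6.30% in the 2 h libraries. In nuclei they held 11.6% in 0 h replicate 2, 8.89% in 1 h replicate 2 and 9.06% and 10.6% at 2 h. The 3 libraries of the split stood higher, at 15.7% in mitochondria 0 h replicate 2, 20.2% in mitochondria 1 h replicate 1 and 17.6% in nuclei 0 h replicate 1. Outside the split, the 0 h library was the highest in each fraction and nuclei lay above mitochondria at each time, but only 1 such library stands for 0 h and for 1 h in each fraction. The share of retained-intron transcripts in all other genes of the table was 0.159% at 0 h, 0.108% at 1 h and 0.097% and 0.101% at 2 h in the same mitochondrial libraries, and 0.15%, 0.096%, and 0.117% and 0.113% in the nuclear ones. It was highest at 0 h there too. In the 3 libraries of the split it was 0.142% in mitochondria 0 h replicate 2, 0.102% in mitochondria 1 h replicate 1 and 0.15% in nuclei 0 h replicate 1. The other genes thus did not stand higher in those libraries, as the members did.

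**Figure D5:**
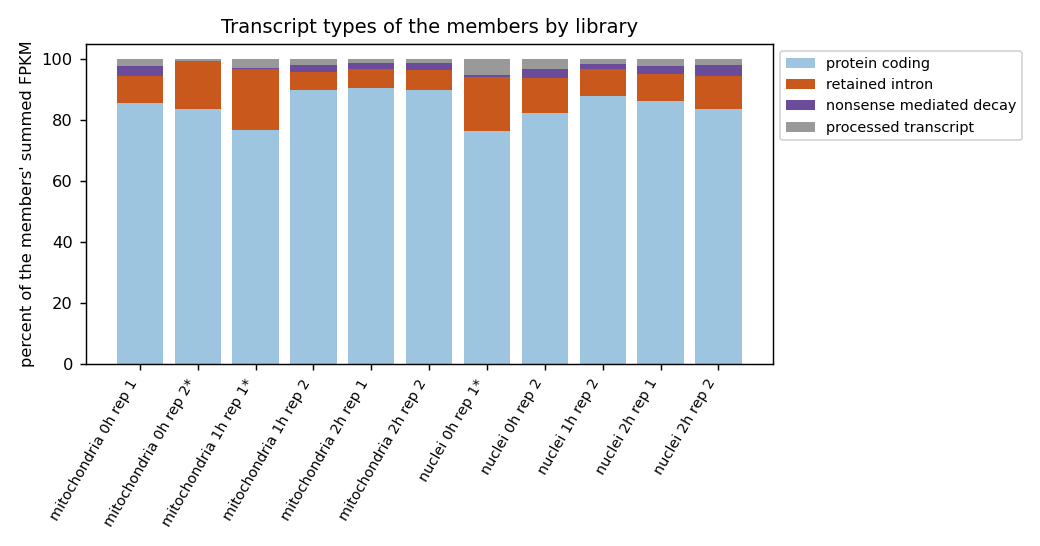
Percent of the members' summed FPKM (vertical axis, from 0) by transcript type in each of 11 libraries (horizontal axis, asterisks mark 3 libraries of the split). Retained-intron transcripts hold 5.92% to 11.6% outside the split and 15.7% to 20.2% within it.

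Hnrnpa2b1-208, a retained-intron transcript of Hnrnpa2b1, had an FPKM of 23.0 and 19.4 in nuclei at 0 h, 6.80 in the 1 h library and 8.15 and 6.995 at 2 h. In mitochondria it had 17.1 and 11.7, 10.8 and 3.78, and 9.67 and 2.86. In both fractions the 0 h values lay above every later one, by a wide margin in nuclei and narrowly in mitochondria. Srsf3-204, another of this type, had 7.43 and 4.34 in nuclei at 0 h, 1.87 at 1 h and 2.90 and 2.77 at 2 h, and Srsf3-201, the decay target of the same gene, stayed between 0 and 3.21 in all 11 libraries. Of the 93 member transcripts tested with limma on log2(FPKM + 1), the 1 h against 0 h comparison of mitochondria called 0, where it called 4.97% of all transcripts, with 2 below an unadjusted p of 0.05. For 2 h against 0 h mitochondria gave 3 calls (8.65% of all), in nuclei 5 at 1 h (17.3%) and 6 at 2 h (19.3%), and between mitochondria and nuclei 1 (3.47%). From 1 to 2 h 0 were called in mitochondria (0.117%) and 0 in nuclei (0.0875%), with 8 and 2 at an unadjusted p under 0.05. For the difference between fractions 0 were called at 1 h (0.452%) and 0 at 2 h (0.263%), with 9 and 6 at an unadjusted p under 0.05. All 11 nuclear calls were falls, on a scale without correction for the shift of the median gene, and the member shares lay below those of all transcripts. The nuclear 1 h group had 1 library here and was assumed to vary like the others.

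The other genes of the splicing pathway were read from lists. In nuclei 1.01% of all genes rose and 0.816% fell at 1 h, and 4.65% rose and 5.55% fell at 2 h. Among genes above the median level these shares were 1.85% and 1.42%, and 7.77% and 10%. The 1 h difference was called higher in 0.327% of all genes and lower in 0.892%. Of 12 SR protein kinases and import factors, 3 fell and none rose in nuclei at 1 h, namely Rsrp1 at -1.79 ± 0.14 (limma, adjusted p = 5.68e-05), an arginine and serine rich protein, and the kinases Clk1 at -1.01 ± 0.15 (adjusted p = 0.00619) and Clk4 at -0.79 ± 0.14 (adjusted p = 0.0175). Clk4 also passed the 1 h difference between fractions, at 1.12 ± 0.20 (adjusted p = 0.0232), the only 1 of the 12. Of 37 other splicing regulators none passed that difference, with 14 higher and none lower at an unadjusted p under 0.05, and 34 lay above 0 with a median of 0.23. In nuclei at 2 h 2 of them rose and 8 fell, the smallest p being those of Cirbp, the cold-inducible RNA-binding protein, at 1.70 ± 0.12 (adjusted p = 8.78e-06), Rbm25 at -0.66 ± 0.08 (adjusted p = 0.00053) and Tardbp, the RNA-binding protein TDP-43, at -0.58 ± 0.08 (adjusted p = 0.000693). Of 36 core spliceosome genes none passed the 1 h difference, with 2 higher and 2 lower at an unadjusted p under 0.05, and their median was 0.01, beside 0.01 for all genes. In nuclei at 2 h 7 of them rose and 1, Sf3b1, fell. Sf3a2, of the U2 snRNP, stood at 0.49 (adjusted p = 0.000931) and Snrpa, of the U1 snRNP, at 0.52 ± 0.09 (adjusted p = 0.00259). Of 14 genes of nonsense-mediated decay none passed the 1 h difference, with 1 higher and none lower unadjusted and a median of 0.03, and 3 rose and none fell in nuclei at 2 h.

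Of 8 RNAs kept in the nucleus, 6 were tested. Malat1 passed the 1 h difference in the same direction as the members, at 0.50 ± 0.10 (limma, adjusted p = 0.0384), and 5 of the 6 lay above 0 with a median of 0.42. Malat1 stood in nuclei at 796 and 752 RPM at 0 h, then 545 and 545 after 1 h, and in mitochondria at 419 and 367, then 398 and 383. Neat1, the scaffold RNA of paraspeckles, fell in nuclei at 1 h by 1.20 ± 0.08 (adjusted p = 2.01e-05) and in mitochondria by 0.75 ± 0.08 (adjusted p = 0.000347). The level of Malat1 in mitochondria relative to nuclei thus moved in the direction of the members, and its part in their difference was not tested.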

How the data were processed

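RNA of isolated mitochondria and nuclei was sequenced after depletion of ribosomal RNA, with a NEBNext Ultra II kit, per the labels' protocols. HISAT2, StringTie and edgeR, with the builds GRCm38 and mm10, appear in the submitters' processing notes; their order, versions and settings are not given in the sources used here. The deposited gene table holds log2 values of RPM, reads scaled to a common total, with library totals of 30.3 to 42.3 M reads. A gene without a read stands at the worth of 0.9 read, and 99.997% to 100.0% of values came out as whole reads within 0.05 read, so depth is known. Of 35373 entries 52 repeated a gene and were left out. Whether reads were counted by strand is not given, so overlapping and antisense genes cannot be told apart. Transcripts were deposited as FPKM, per the file headers; nuclei 1 h replicate 1 was not used there.

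Values were quantile normalised between the 12 libraries, because the median gene shifted with time on the deposited scale. The 21078 genes that exceeded the floor in 2 or more libraries were fitted with limma 3.58.1 in R 4.3.3, with a mean for each of 6 groups, a variance trend and robust moderation. Benjamini-Hochberg adjustment ran over all genes in each contrast at 0.05. Errors after ± are standard errors of that fit, with n = 2 libraries in a group. Transcripts were tested likewise on log2(FPKM + 1) where 2 libraries reached an FPKM of 1. Fold changes on that scale understate those of low transcripts. Copies were sought with BLAST+ 2.17.0 from each member's longest coding sequence among 10549 processed pseudogene transcripts of GENCODE M21, at 90% identity over 50% of the sequence. The fit was also run on simulated reads, with known changes in mitochondria larger than any called among the members and without the library split. That run therefore does not cover changes as small as theirs. Members given by library were those past the threshold with groups that did not overlap and a level above the median gene, at most 6 a direction, filled to 3 by smallest p; further members of the 1 h difference and Ptbp1 were added after their values were seen. For the other lists, the examples come from the genes of smallest p; 1 such gene is not reported here. Members, lists and the library split were chosen with earlier results of these data known. Alternatives covered scaling, filters, the library split, the replicate number, the variance model and each library left out.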

Additional observations from a re-analysis of the deposited data

Results flagged for a closer look

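The 1 h effect differed between mitochondria and nuclei in 10 members, by the test of the difference itself (limma, adjusted p under 0.05). The difference, mitochondria minus nuclei in log2 units, was 0.58 for Tra2a, 0.58 for Srsf3, 0.57 for Ddx17, 0.54 for Hnrnpab, 0.53 for Hnrnpdl, 0.52 for Srsf7, 0.52 for Hnrnpa2b1, 0.50 for Srsf1, 0.49 for Hnrnpd and 0.44 for Srsf6. In Ddx17 the value was lower at 1 h in both preparations, and less so in mitochondria, where that value did not pass the test. Srsf3, Srsf7, Hnrnpdl and Hnrnpa2b1 have processed pseudogene copies and the other 6 have none. Malat1 moved in the same direction by 0.50, and its part in these values was not tested.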

How the results depend on the processing

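Counts of members called, over both directions, were 10, 11, 7, 5, 14, 1, 12, 10 and 0 for mitochondria 1 h against 0 h, 2 h against 0 h and 2 h against 1 h, nuclei in the same order, mitochondria against nuclei, and the difference between fractions at 1 h and at 2 h. On the deposited scale they were 23 and 4 in mitochondria for 2 h against 0 h and 2 h against 1 h, 39, 36 and 2 in nuclei, and 25 for the 1 h difference. Shares of all genes called higher and lower there were 1.7% and 25.5%, then 1.23% and 2.07%, in mitochondria. In nuclei they were 0.508% and 48%, 1.59% and 38.1%, and 2.11% and 0.432%, and for the 1 h difference 7.46% and 0.389%. With median centring the counts were 12 for mitochondria 2 h against 1 h, 8 for nuclei 2 h against 1 h, 25 for mitochondria against nuclei and 2 for the 2 h difference. All-gene shares in these were 1.88% and 5.39%, 1.27% and 6.05%, 20.1% and 4.78%, and 0.123% and 1.34%. Without a filter 4 were called for mitochondria 2 h against 1 h, and with the strict filter 2 for nuclei 2 h against 1 h. The all-gene shares were 1.31% and 1.63%, and 2.98% and 3.66%. A term for the library split gave 16 for mitochondria 1 h against 0 h, 8 for nuclei 1 h against 0 h, and 19 and 4 for the 1 h and 2 h differences. Here the all-gene shares were 3.56% and 4.5%, 1.64% and 1.46%, 1.06% and 1.85%, and 0.361% and 0.626%. A fit of the 8 libraries outside the split, with 1 library in 4 groups, called no member in any comparison. It called hardly any other gene either, so its calls say little about the members. The median member value of the 1 h difference was 0.34 there, against 0 over all genes. Without variance trend and robust moderation the counts were 1, 2, 0, 1, 3, 0, 2 and 0 for the first 8 comparisons. All-gene shares, in that order, were 0.939% and 1.56%, 2.5% and 3.2%, and 0.783% and 0.764% in mitochondria. In nuclei they were 0.413% and 0.213%, 2.61% and 2.64%, and 0.399% and 0.304%. Between fractions they were 2.06% and 2.76%, and for the 1 h difference 0.00949% and 0.00474%. Combinations added after seeing the data gave, for median centring with the split term, 16, 18 and 18 in mitochondria, 9 and 11 in nuclei for 1 h against 0 h and 2 h against 1 h, 31 for mitochondria against nuclei and 2 for the 2 h difference, and for the deposited scale with the split term 28 and 4 in mitochondria at 2 h, 42 and 41 in nuclei at 1 and 2 h, and 32 for the 1 h difference. With median centring and the split term, all-gene shares in mitochondria were 2.97% and 5.17%, 3.77% and 9.88%, and 1.48% and 4.19%. In nuclei they were 3.84% and 0.816%, then 0.916% and 4.92%, between fractions 21.2% and 4.76%, and for the 2 h difference 0.128% and 1.15%. On the deposited scale with that term, 24% and 1.06% of all genes fell in mitochondria and 49.3% and 37.7% in nuclei. There 7.57% were higher in the 1 h difference. The cause of these changes of count was not tested.

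With 1 library left out the counts ran from 5 to 10, 4 to 11 and 0 to 6 in mitochondria, 1 to 5, 5 to 15 and 0 to 1 in nuclei, 8 to 12 for mitochondria against nuclei, 0 to 5 for the 1 h difference and 0 to 0 for the 2 h difference. A lone library was then assumed to vary like the other groups. The counts over all genes moved with the library left out as well. Of 50 values of named members, signs turned only with scaling. On the deposited scale Srsf1 in mitochondria at 1 h was -0.04, and in mitochondria at 2 h Hnrnpd was -0.014, Hnrnpdl -0.084, Tra2a -0.14 and Srsf3 -0.12, with Tra2b in nuclei at 2 h at -0.086. With the split term added these were -0.04, -0.02, -0.10, -0.17, -0.20 and -0.24. Son, mitochondria against nuclei, was 0.024 with median centring, with or without that term. The replicate block gave 10, 9 and 7 calls in mitochondria, 5, 13 and 1 in nuclei, 11 between fractions, and 10 and 0 for the differences. It ended the calls of Srsf3 and Hnrnpul1 in mitochondria and Tra2b in nuclei at 2 h against 0 h, of Hnrnph2 between fractions, and of Hnrnpdl and Srsf6 in the 1 h difference, where Luc7l3 (higher) and Srrm2 (lower) were added, giving 9 higher and 1 lower. Same-numbered libraries correlated between -0.74 and 0.74 in their deviations, in step with the library split, so the numbers were not taken as pairs. Pseudocount and filter left the counts of member transcripts within 1.5 times, while all transcripts called went from 6 to 18 and 14 for nuclei 2 h against 1 h and, with the pseudocount, from 8 to 13 for mitochondria 2 h against 1 h.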

Other observations

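Among the 59 other genes called higher in mitochondria than in nuclei in the 1 h difference were further RNA-binding or RNA-processing genes, chosen here after their values were seen: Pnisr, an arginine and serine rich protein, at 0.61 log2 units, Arglu1, a splicing coactivator, at 0.56, Ncl, nucleolin, at 0.42, and the small RNA Scarna2, a guide of Cajal bodies, at 0.54. The snoRNA host genes Snhg4, Snhg1 and Snhg3 stood at 0.71, 0.69 and 0.53. These values come from the same fit and have no independent support.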
